A study of Arabidopsis thaliana with 6 samples.

Results

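Xyloglucan endotransglucosylase/hydrolase (XTH) genes encode secreted enzymes that cut xyloglucan, the main hemicellulose of the primary cell wall, and rejoin the cut end to another xyloglucan chain or to water. Members were the loci whose protein description in the files holds the words xyloglucan endotransglucosylase, which gave 34 of 33602 loci. They are the 33 numbered genes XTH1 to XTH33 and the pseudogene AT2G12660, which carries the description of XTH21. Whole seedlings of Arabidopsis thaliana were compared at ZT15 (zeitgeber time, 15 h from lights on) between Col-0 (the wild type) and the double mutant toc1-21 prr5-1, labelled as homozygous. Each genotype had 3 libraries of seedlings aged 10 days, and all plants were kept at 22 °C under long days, with MS and 3% sucrose as the medium. TOC1 and PRR5 are pseudo-response regulators of the circadian clock, and the series asks how they act on hypocotyl growth through PIF4 and PIF5.

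Cell elongation requires that the load-bearing wall yields while new polymers are laid in. XTH enzymes act on the xyloglucan that coats and ties cellulose microfibrils: the transglucosylase activity splices chains, and the hydrolase activity shortens them. The xyloglucan itself is made in the Golgi by glucan synthases of the CSLC family and by xylosyl-, galactosyl- and fucosyltransferases. In the wall it is trimmed by exoglycosidases. In Arabidopsis several XTH genes are known as targets of touch, auxin, brassinosteroid or shade signals, and others as genes of the root epidermis or of vascular tissue.

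The active sites of the members were set side by side, base by base. The site was searched in the coding sequences of the TAIR10.1 genome, in frame, as a run of 9 codons. It was found in 31 of the 33 protein-coding members. The search fixed which amino acids most of these codons could encode, so part of the likeness of the runs was set by it. No match with these codons was found in XTH9 and XTH11. A different amino acid at any fixed codon is enough to miss the site. The runs of the 5 members that changed between the genotypes are given with the codons of the 2 catalytic glutamates in capitals.
XTH4: gacGAGatagactttGAGttccttgga
XTH6: gacGAGctagattttGAGttcttggga
XTH22: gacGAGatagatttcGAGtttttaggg
XTH23: gacGAGattgactttGAGttcttggga
XTH24: gatGAGattgattttGAGttcttgggt
These 5 runs differed from each other at 3 to 6 of 27 bases, and no run was shared by any 2 of the 31 genes. Over whole coding sequences, the 528 pairs of protein-coding members were between 57.5% and 92.2% identical, with a median of 62.4%. Only 2 pairs shared any stretch of 50 bases in their transcripts, XTH18 with XTH19 and XTH17 with XTH19, and these stretches made up 1.63% of the 50-base words of XTH19. The sources used here do not state how reads matching several genes were counted, and the values of XTH17, XTH18 and XTH19 are the least certain on this account. Nor do they state the strand setting of the counting, so reads of overlapping or antisense genes cannot be told apart.

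Values are RPKM (reads per kilobase and per unit of library depth), which can be set side by side between genes only as far as the lengths used hold. These lengths were shorter than those of TAIR10.1 by unlike amounts, at 1207 against 1210 bases for XTH24 and 1214 against 1615 bases for XTH4. The order of genes by RPKM and the share of XTH4 depend on them. Between 14617043 and 26792712 reads lie behind the 6 libraries. As a check of the labels, TOC1 stood at 34.0, 32.0 and 34.9 RPKM in Col-0 and at 18.6, 14.8 and 17.2 RPKM in the mutant. PRR5 stood at 2.88, 3.01 and 2.92 RPKM in Col-0 and at 1.09, 0.926 and 1.35 RPKM in the mutant. Both were lower in all mutant libraries than in all Col-0 libraries. Markers of root and shoot were detected in each library, as whole seedlings should show. Some libraries stood apart in gene groups. Col-0 replicate 3 had the lowest Col-0 value for 8 of 8 root hair markers and for 4 of 4 endodermis markers. Its values were at a median of 0.396 times the mean of the other Col-0 libraries for the root hair list and 0.489 times for the endodermis list. Col-0 replicate 1 had the lowest Col-0 value for 7 of 8 tested seed markers. Mutant replicate 1 was the lowest mutant library for 23 of 29 tested XTH genes and for 11 of 14 tested xyloglucan synthesis genes. These orders were not counted over all tested genes, so they are not shown to be particular to these lists. In bulk RNA, fewer cells of a type and less RNA per cell cannot be told apart.

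The family was dominated by a single gene. XTH4 made up 34.8% ± 0.787 (SD, n = 3) of the summed family RPKM in Col-0 and 42.9% ± 1.83 (SD, n = 3) in the mutant. After XTH4 at a mean of 381.7 RPKM, the order in Col-0 was XTH9 at 118.7, XTH7 at 105, XTH27 at 88.8 and XTH24 at 68.8 RPKM. The Col-0 values of XTH9 and XTH7 overlapped, as did those of XTH7 and XTH27. In the mutant XTH24 took the second place at 118.1 RPKM, followed by XTH27 at 103.2, XTH9 at 101.4 and XTH7 at 85.2 RPKM. Among these 4 the mutant values of neighbours in the order overlapped. At the other end, XTH1, XTH2, XTH3 and AT2G12660 were listed at 0 in all 6 libraries. XTH29 was detected with 1 to 5 reads per library, between 0.0454 and 0.279 RPKM. These 5 members fell below the filter of 1 RPKM in at least 3 libraries and were not tested, so all counts of changes concern the other 29.

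**Figure D1:**
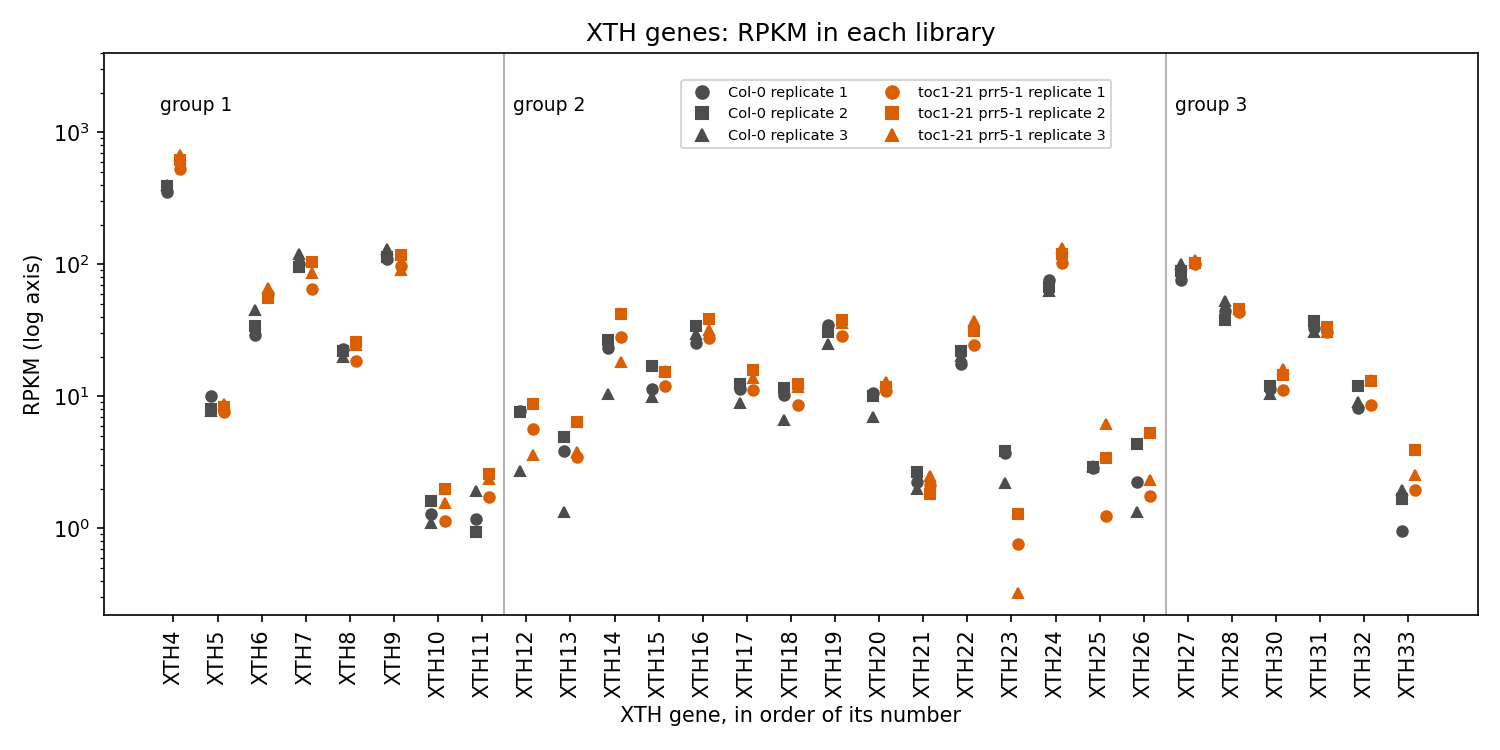
RPKM (log axis) of the 29 tested XTH genes in each library, Col-0 in grey and toc1-21 prr5-1 in orange, with 1 marker shape per replicate number and vertical lines between the subgroups of the family. XTH4 lies highest in both genotypes, and XTH23 lies under 1.3 RPKM in all 3 mutant libraries.

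Summed over the family, RPKM stood at 1047.7, 1113.8 and 1126.1 in Col-0 and at 1247.8, 1498.7 and 1491.7 in the mutant. All mutant sums lay above all Col-0 sums, with means in a ratio of 1.29. Without the 5 members that passed the test, the sums were 565.9, 596.7 and 596.0 in Col-0 and 528.6, 672.5 and 587.4 in the mutant, and they overlapped. In RPKM the difference of the family sum lay mainly with XTH4 and XTH24. The 5 members left out were picked because they differed in these libraries, so the overlap without them is not a separate result. Of the other 24 tested members, 19 had log2 fold changes above 0 and 5 below, with a median of 0.18. Over all tested genes, 9398 of 19710 were above 0. For 9 members of the family the sign changed in some other fit, so the count of signs depends on the libraries and settings used.

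Genotypes were compared with limma on log2(RPKM + 1), fitted over all 19710 genes that passed the filter, with Benjamini-Hochberg adjustment over these genes and a call at an adjusted p under 0.05. Fold changes from this fit compare the mutant with Col-0 after adding 1 to each RPKM value, so they understate the change of low genes. Of the 29 tested XTH genes, 5 were called (17.2%), against 10.6% of all tested genes. XTH4, XTH6, XTH22 and XTH24 were higher in the mutant, which is 13.8% of the tested members against 3.90% of all genes. XTH23 was lower, which is 3.45% against 6.65% of all genes. These shares rest on 5 called genes and were not tested against those of all genes. The other 24 did not pass. Values of the genotypes did not overlap for 6 of the 29 (20.7%), against 27.0% of all tested genes, a lower share than the background. The median log2 fold change over the tested members was 0.18, against -0.01 over all genes. It ranged from 0.0869 without Col-0 replicate 3 to 0.35 without mutant replicate 1. No call of XTH4, XTH6, XTH23 or XTH24 was lost when any 1 library was left out.

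**Figure D2:**
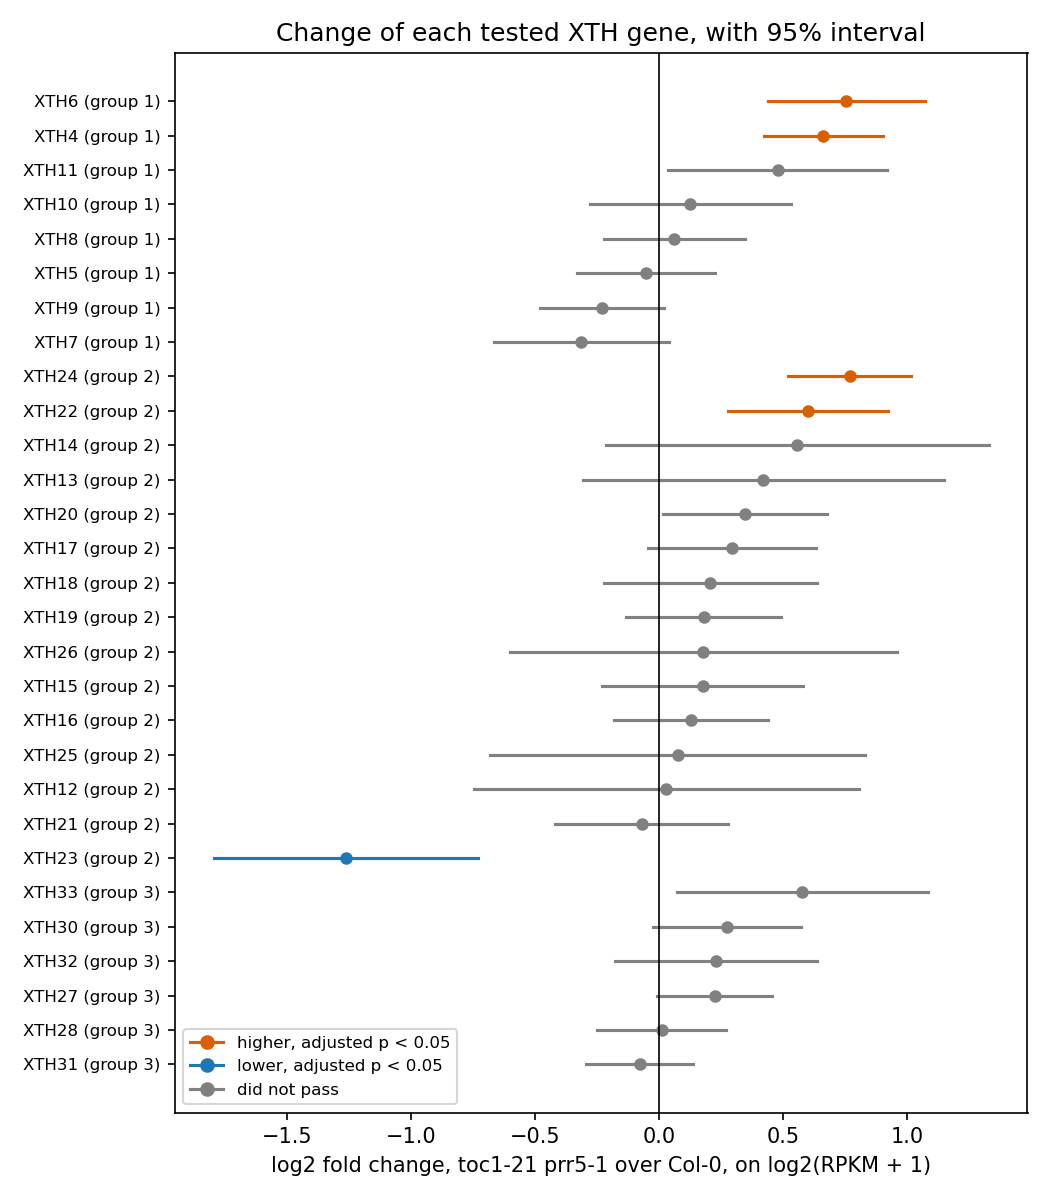
Log2 fold change on log2(RPKM + 1), toc1-21 prr5-1 over Col-0, for the 29 tested XTH genes, sorted within the 3 subgroups. Points are limma estimates, bars are 95% intervals and colour marks the call. The 4 genes called higher lie between 0.60 and 0.77, and XTH23 lies at -1.26.

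The numbered family is classically split into group 1 (XTH1 to XTH11), group 2 (XTH12 to XTH26) and group 3 (XTH27 to XTH33), the last of which holds XTH31 and XTH32, the members known for hydrolase activity. Group 1 had 2 genes higher and none lower among 8 tested (25.0% called, against 10.6% of all tested genes). XTH4, a transglucosylase of expanding organs that also acts in secondary growth, stood at 355.8, 389.6 and 399.8 RPKM in Col-0 and at 532.1, 617.3 and 668.8 RPKM in the mutant. The lowest mutant library lay well above the highest Col-0 library, a rise of 1.59-fold in mean RPKM (log2 fold change 0.66, SE 0.107, limma adjusted p = 0.00323). It lies on chromosome 2 at 2763449 to 2765743 of TAIR10.1, on the plus strand.

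XTH6, which the files annotate with a response to water deprivation, stood at 29.1, 34.3 and 44.7 RPKM in Col-0 and at 59.98, 55.9 and 66.1 RPKM in the mutant. The genotypes did not overlap, although Col-0 replicate 3 lay closer to the mutant than the other Col-0 libraries. Its mean was 1.68-fold higher (log2 fold change 0.75, SE 0.142, limma adjusted p = 0.0073). XTH6 lies on chromosome 5 at 26298728 to 26300529. XTH7, its closest relative with 73.2% coding identity, stood at 99.8, 94.7 and 120.4 RPKM in Col-0 and at 65.5, 104.2 and 86.1 RPKM in the mutant. It did not pass (log2 fold change -0.31, 95% interval -0.67 to 0.04), and its genotypes overlapped. XTH9, a gene of vascular and elongating tissue, stood at 110.6, 114.6 and 131.0 RPKM in Col-0 and at 96.7, 117.1 and 90.3 RPKM in the mutant, and did not pass either (-0.23, 95% interval -0.48 to 0.02). Both of these abundant group 1 genes therefore had estimates below 0, with intervals that reach just past 0.

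Of the remaining group 1 members, XTH5 and XTH8 had close means in the genotypes. XTH5 was at 8.59 ± 1.30 and 8.21 ± 0.565 RPKM, and XTH8 at 21.7 ± 1.67 and 22.8 ± 3.86 RPKM (SD, n = 3 each, Col-0 first). XTH10 stayed under 2 RPKM in all libraries. XTH11 stood at 1.17, 0.937 and 1.93 RPKM in Col-0 and at 1.74, 2.59 and 2.38 RPKM in the mutant. With 16 to 73 reads per library it had an unadjusted limma p of 0.0367, and it did not pass after adjustment (adjusted p = 0.185).

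Group 2 had 2 genes higher, 1 lower and 12 that did not pass among 15 tested (20.0% called, against 10.6% of all tested genes). XTH24, first described as the meristem transcript MERI5, stood at 75.6, 67.5 and 63.3 RPKM in Col-0 and at 101.7, 120.6 and 132.1 RPKM in the mutant. All mutant libraries lay above 100 RPKM and all Col-0 libraries below 80 RPKM, a rise of 1.72-fold in mean RPKM (log2 fold change 0.77, SE 0.111, limma adjusted p = 0.0016). This was the smallest adjusted p of the family. XTH24 lies on chromosome 4 at 14819192 to 14820595, on the minus strand.

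XTH22, known as the touch-induced gene TCH4, stood at 17.6, 22.0 and 20.1 RPKM in Col-0 and at 24.7, 31.1 and 37.0 RPKM in the mutant. The genotypes did not overlap, but the lowest mutant library lay only 2.63 RPKM above the highest Col-0 library. The rise was 1.56-fold in mean RPKM (log2 fold change 0.60, SE 0.144, limma adjusted p = 0.0252). Its call was lost in 4 of 14 other fits, with adjusted p of 0.108 without Col-0 replicate 1, 0.0912 without mutant replicate 2, 0.0851 without mutant replicate 3 and 0.0616 with no filter. XTH22 lies on chromosome 5 at 23307006 to 23308680.

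XTH23, also named XTR6, was the single member that fell. It stood at 3.73, 3.83 and 2.21 RPKM in Col-0 and at 0.758, 1.28 and 0.325 RPKM in the mutant. The genotypes did not overlap, with 53 to 67 reads per Col-0 library and 7 to 37 reads per mutant library. The Col-0 mean was 4.14 times the mutant mean, while on the log2(RPKM + 1) scale the change was -1.26 (SE 0.238, limma adjusted p = 0.0073). It was the only tested member with a change of at least 2-fold on that scale. XTH23 lies on chromosome 4 at 13128394 to 13129927. By coding sequence XTH22 and XTH23 are each other's closest relatives in the family (80.9% identity, no shared stretch of 50 bases), and they changed in opposite directions.

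Many group 2 genes lie in tandem. On chromosome 5 the order is XTH12, XTH13, XTH25 and XTH22, with 565 bases between the last 2. XTH25 stood at 2.84, 2.91 and 2.98 RPKM in Col-0 and at 1.23, 3.38 and 6.15 RPKM in the mutant. Its Col-0 values were nearly equal while its mutant values spread on both sides of them, and it did not pass (log2 fold change 0.07, 95% interval -0.68 to 0.83). On chromosome 4, XTH23 and XTH14 are 363 bases apart, and XTH24 is 5161 bases from XTH18, which is 1500 bases from XTH19. XTH18 stood at 10.2, 11.5 and 6.67 RPKM in Col-0 and at 8.60, 12.4 and 11.8 RPKM in the mutant. XTH19, an auxin-responsive root gene, stood at 34.9, 30.7 and 25.0 RPKM in Col-0 and at 28.7, 38.2 and 36.0 RPKM in the mutant. Neither passed, and both overlapped between genotypes.

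Whether neighbours differed in their change was tested on the difference of their log2(RPKM + 1) values within each library, for 6 adjacent pairs, with exact two-sided permutation over the libraries. With 3 against 3 the smallest p this allows is 0.10. XTH24 exceeded XTH18 by 2.78, 2.46 and 3.07 in Col-0 and by 3.42, 3.19 and 3.38 in the mutant, a shift of 0.56 with no overlap (exact permutation p = 0.10, adjusted over the pairs 0.30). XTH23 minus XTH14 was -2.35, -2.53 and -1.83 in Col-0 and -4.06, -4.24 and -3.87 in the mutant, a shift of -1.82 with no overlap (exact permutation p = 0.10, adjusted 0.30). For XTH25 minus XTH22 the shift was -0.53 (exact permutation p = 0.20, adjusted 0.30), and for XTH18 minus XTH19 it was 0.03 (exact permutation p = 0.90, adjusted 0.90). XTH12 minus XTH13 shifted by -0.39 (exact permutation p = 0.20, adjusted 0.30) and XTH13 minus XTH25 by 0.34 (exact permutation p = 0.50, adjusted 0.60). With this test no pair could reach an adjusted p under 0.05. XTH22, XTH23 and XTH24 had already been called on the same libraries, so the shifts of their pairs are not separate support.

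**Figure D3:**
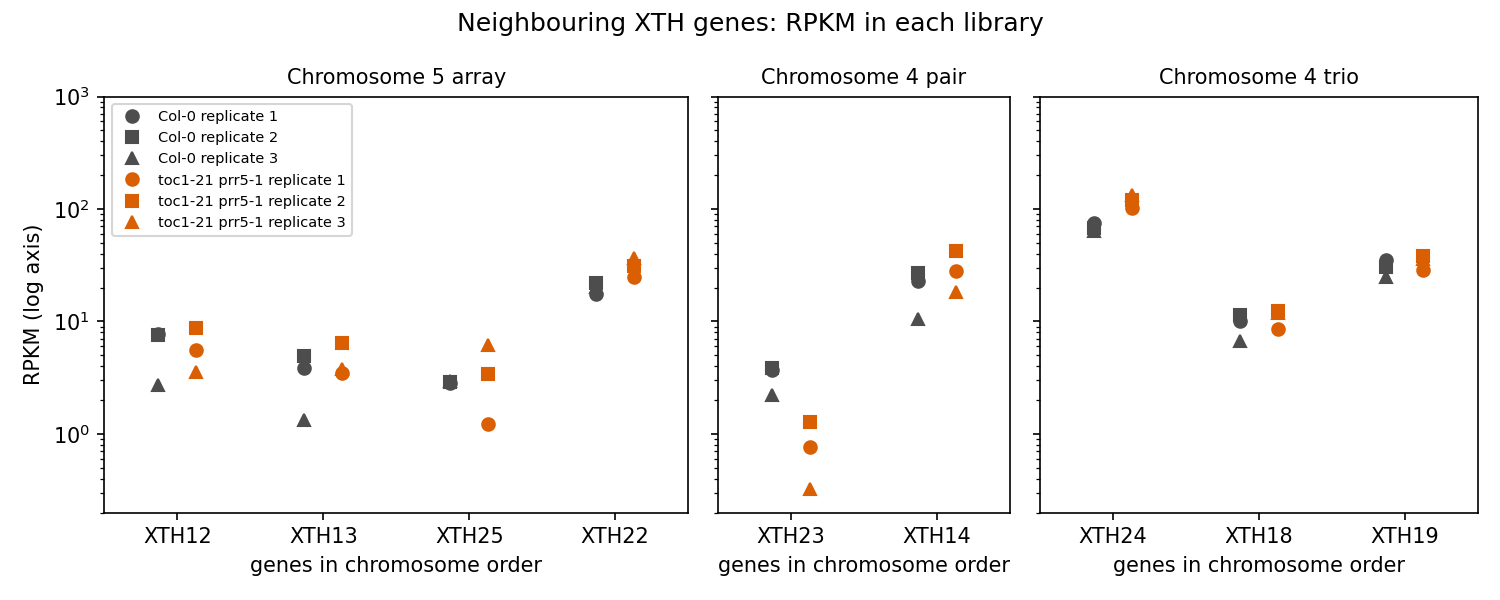
RPKM (log axis) per library of XTH genes that neighbour each other, in chromosome order, Col-0 in grey and toc1-21 prr5-1 in orange, with 1 marker shape per replicate number. XTH22, XTH23 and XTH24 separate by genotype, while XTH12, XTH13, XTH14, XTH18, XTH19 and XTH25 overlap.

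Members linked to the root epidermis varied more between libraries than between genotypes. XTH14, an enzyme of root hairs and the elongation zone, stood at 23.1, 26.9 and 10.4 RPKM in Col-0 and at 28.4, 42.1 and 18.3 RPKM in the mutant. XTH26, also of root hairs, stood at 2.25, 4.34 and 1.32 RPKM in Col-0 and at 1.76, 5.31 and 2.33 RPKM in the mutant. XTH12 stood at 7.73, 7.56 and 2.72 RPKM in Col-0 and at 5.63, 8.68 and 3.59 RPKM in the mutant. In each of these genes Col-0 replicate 3 was the lowest Col-0 library and mutant replicate 2 the highest mutant library. XTH13 followed the same order, at 3.84, 4.91 and 1.32 RPKM in Col-0 and at 3.50, 6.42 and 3.75 RPKM in the mutant. Replicate 2 was highest in both genotypes for XTH13, XTH14 and XTH26. Replicate 3 was lowest in both genotypes for XTH12 and XTH14. None of the 4 passed. Over the whole family, Col-0 replicate 3 was the lowest Col-0 library for 17 of 29 tested genes. Mutant replicate 2 was the highest mutant library for 16 of the 29. The same counts were not made over all tested genes.

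Root hair markers shared part of the library order of these 4 genes. Col-0 replicate 3 was the lowest Col-0 library for 8 of 8 markers. Mutant replicate 2 was the highest mutant library for 7 of 8, while RHD6 was lowest there. The summed RPKM of XTH12, XTH13, XTH14 and XTH26 was 36.9, 43.7 and 15.8 in Col-0 and 39.3, 62.5 and 27.98 in the mutant. The 8 root hair markers summed to 73.4, 78.9 and 29.2 RPKM in Col-0 and to 72.7, 99.2 and 67.3 RPKM in the mutant. In both sums Col-0 replicate 3 was lowest and mutant replicate 2 highest. Within each genotype, replicate 2 was highest and replicate 3 lowest in both sums. None of the 8 markers was at 0 in any library, and 0 of 8 were called by limma and 0 by limma-voom, with 0 at an unadjusted limma p under 0.05. The part of root content in the values of these XTH genes was not tested. Without Col-0 replicate 3 the log2 fold change of XTH14 was 0.16 in place of 0.56, and that of XTH12 was -0.38 in place of 0.03, both without a call. Leaving out any other 1 library gave estimates of 0.27 to 0.85 for XTH14 and of -0.24 to 0.30 for XTH12, all without a call.

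**Figure D4:**
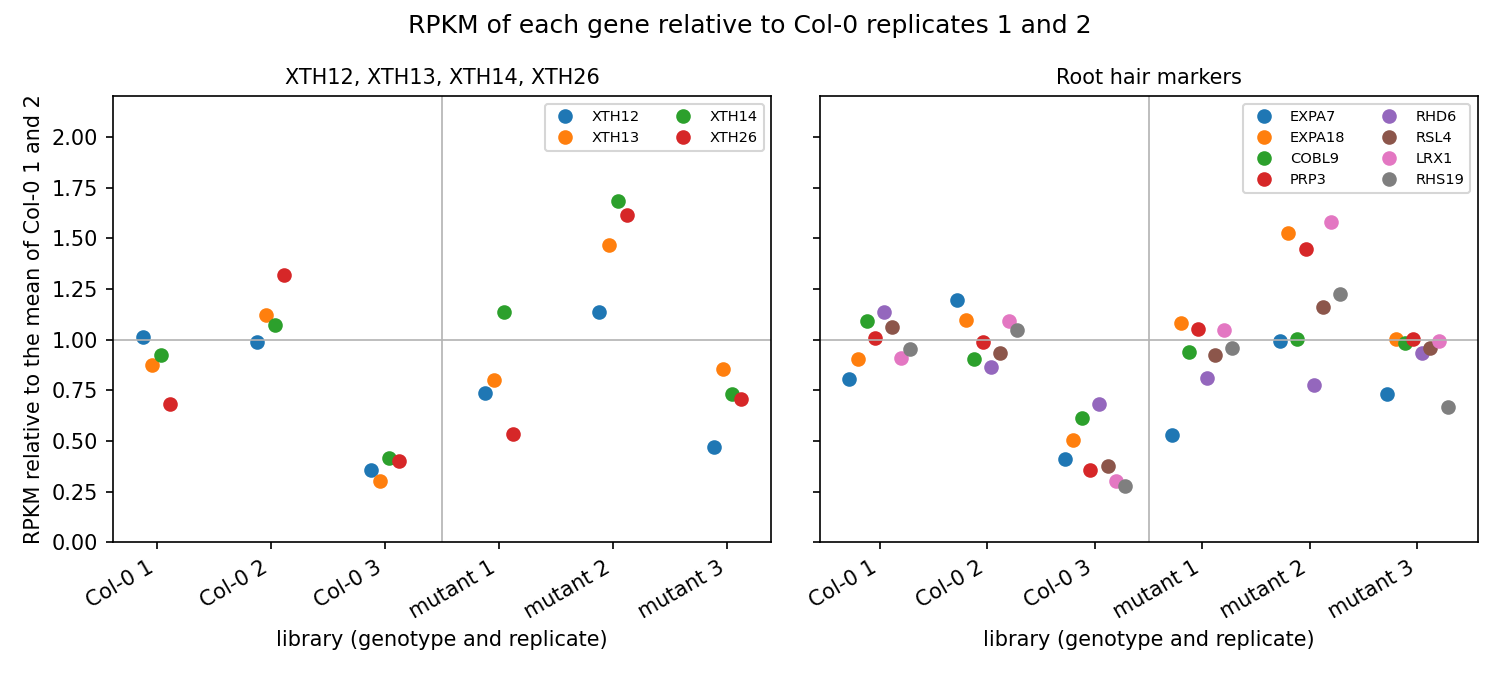
RPKM of XTH12, XTH13, XTH14 and XTH26 (left) and of 8 root hair markers (right) in each library, relative to the mean of Col-0 replicates 1 and 2, with 1 colour per gene. In Col-0 replicate 3 the XTH genes lie between 0.301 and 0.418 and the markers between 0.277 and 0.685.

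The other group 2 members did not pass. XTH17 and XTH20, genes of the root that respond to auxin, had positive estimates: XTH17 of 0.29 (95% interval -0.04 to 0.63) and XTH20 of 0.34 (0.02 to 0.67). XTH20 stood at 10.6, 10.07 and 6.99 RPKM in Col-0 and at 10.96, 11.8 and 12.7 RPKM in the mutant. Its genotypes did not overlap by a margin of 0.35 RPKM, and its adjusted p was 0.201. Without Col-0 replicate 3 its estimate was 0.18. XTH15, also named XTR7 and known as a shade-induced gene, stood at 11.4, 17.1 and 9.91 RPKM in Col-0 and at 12.0, 15.3 and 15.6 RPKM in the mutant. Its genotypes overlapped, with a log2 fold change of 0.18 (95% interval -0.23 to 0.58). XTH16, its closest relative, was at 29.7 ± 4.31 and 32.6 ± 5.45 RPKM, and XTH21 at 2.29 ± 0.339 and 2.13 ± 0.335 RPKM (SD, n = 3 each, Col-0 first).

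Group 3 had 0 of 6 tested genes called by limma and 0 by limma-voom, with 1 at an unadjusted p under 0.05. Against 10.6% of all tested genes called by limma, 6 genes are too few to set the group apart. The shares of group 1 and group 2 also rest on few genes and were not tested against all genes. XTH27, known for a role in leaf vein development, stood at 76.7, 88.5 and 101.1 RPKM in Col-0 and at 100.4, 102.3 and 107.0 RPKM in the mutant. The highest Col-0 library lay just above the lowest mutant library, and the log2 fold change was 0.22 (95% interval -0.01 to 0.46, limma adjusted p = 0.241). XTH28 was at 45.1 ± 7.63 and 44.98 ± 1.45 RPKM, and XTH31 at 33.6 ± 3.52 and 31.6 ± 1.71 RPKM (SD, n = 3 each, Col-0 first). XTH30 was at 11.3 ± 0.844 and 13.9 ± 2.47 RPKM, and XTH32 at 9.75 ± 2.04 and 11.7 ± 2.68 RPKM (SD, n = 3 each). XTH33, a member anchored at the plasma membrane, stood at 0.961, 1.68 and 1.94 RPKM in Col-0 and at 1.94, 3.91 and 2.53 RPKM in the mutant. Of the members that did not pass it had the highest estimate, 0.58 with a 95% interval of 0.07 to 1.08. Its limma adjusted p was 0.160.

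Precision differed over the 24 members that did not pass. Their estimates ran from -0.31 to 0.58, with 19 above 0 and 5 below. The 95% intervals were between 0.431 and 1.56 wide on the log2 scale, and 3 of them included a change of 1 or more. A change as large as that of XTH24 therefore could not be told from none in the widest of these, such as XTH14 with an interval of -0.21 to 1.33. With a term for the replicate number added to the fit, XTH14 was called (95% interval 0.30 to 0.81, limma adjusted p = 0.00988). Over all tested genes the replicate numbers are not shown to pair the libraries.

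Calls among the genes around each changed member are given, because the share of called genes varied along the chromosomes. Within 500 kb on each side, members of the family left out, 0 of 29 tested genes were called around XTH4 and 19 of 211 around XTH24. Around XTH22 the count was 19 of 216 (8.80%), of which 13 were higher. For XTH23 it was 28 of 230 (12.2%), 11 higher and 17 lower. For XTH6 it was 48 of 246 (19.5%), 19 higher and 29 lower, against 10.6% over all genes. The share depended on the window: within 250 kb it was 10.2% around XTH6 and 18.9% around XTH23. Over the 29 tested members this share ran from 0 to 27.5%, with a median of 8.84%. In the window around XTH6 the median log2 fold change was -0.03, and XTH6 itself was higher. The mutated loci TOC1 (24674963 to 24678550) and PRR5 (8356204 to 8358546) are on chromosome 5, as are XTH6 and XTH22. TOC1 lies between XTH22 and XTH6, beyond the 500 kb windows around both. The part of chromosome position in these calls, nearness to the mutated loci included, was not tested.

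Promoters were searched on both strands for the G-box CACGTG, the PIF-box CACATG and the evening element core AATATCT. G-boxes and PIF-boxes are bound by PIF factors, and the evening element by MYB factors of the clock. In the 250 bases before the annotated gene start of TAIR10.1, the G-box was found in 0 of 33 protein-coding members, against 6.5% of 27431 promoters of all protein-coding genes. The PIF-box was found in 5 of 33 (15.2%, against 11.1%), none of them a gene called higher. An evening element core was found in 9 of 33 (27.3%, against 10.0%), among them 1 of 4 genes called higher and 7 of 24 that did not pass. In 1000 bases the shares were 12.1% against 14.8% for the G-box, 39.4% against 37.7% for the PIF-box and 48.5% against 31.5% for the evening element core. In that longer window 0 of 4 genes called higher and 4 of 24 that did not pass had a G-box. A PIF-box was found in 2 of 4 and 11 of 24, and an evening element core in 3 of 4 and 10 of 24. These windows can reach into neighbouring genes, and a match is not a bound site.

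Of 16 listed genes that make xyloglucan 14 passed the filter. Limma and limma-voom each called 0 higher and 1 lower (7.14%, against 6.65% of all tested genes called lower by limma), and at an unadjusted limma p under 0.05 there were 0 higher and 2 lower. CSLC4, a synthase of the glucan backbone, stood at 18.4, 20.0 and 19.0 RPKM in Col-0 and at 12.4, 14.8 and 15.3 RPKM in the mutant. The genotypes did not overlap (log2 fold change -0.41, SE 0.103, limma adjusted p = 0.0304). Its call was lost in 5 of the 6 fits that left out 1 library, all except the one without mutant replicate 3. XXT2, a xylosyltransferase and the most abundant gene of the list, did not pass, with a Col-0 mean of 78.7 ± 3.30 and a mutant mean of 74.9 ± 4.99 RPKM (SD, n = 3 each). The median log2 fold change of the list was -0.03.

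Genes that trim xyloglucan in the wall had 1 higher and 1 lower among 6 tested (33.3%, against 10.6% of all tested genes). A list of 6 genes is too short to be set apart by such a share. Values of the genotypes did not overlap for 5 of the 6 (83.3%, against 27.0% of all tested genes). Among these, BGAL10, FUC95A and FXG1 were higher in the mutant and did not pass. XYL1, the alpha-xylosidase that acts on xyloglucan oligosaccharides, stood at 95.2, 98.2 and 102.8 RPKM in Col-0 and at 121.2, 119.5 and 134.7 RPKM in the mutant (log2 fold change 0.34, SE 0.0816, limma adjusted p = 0.0267). The genotypes did not overlap. BGLC1, a beta-glucosidase, stood at 92.1, 85.8 and 88.5 RPKM in Col-0 and at 70.6, 72.0 and 76.7 RPKM in the mutant (log2 fold change -0.28, SE 0.0766, limma adjusted p = 0.0480). These calls were fragile, and neither was made without Col-0 replicate 1 or without any 1 of the 3 mutant replicates. For BGLC1 the adjusted p was also above the threshold after median-ratio scaling (0.0666) and when Col-0 replicate 3 was left out (0.0726). Without Col-0 replicate 3, 2 genes of the list were called. BGLC1 was not among them, so a gene without a call in the fit of all libraries had gained one.

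In the same libraries both PIF genes of the study's question were higher in the mutant. PIF4 stood at 2.15, 1.66 and 1.47 RPKM in Col-0 and at 5.36, 4.90 and 5.60 RPKM in the mutant (log2 fold change 1.20, limma adjusted p = 0.000468). PIF5 stood at 4.19, 3.48 and 2.91 RPKM in Col-0 and at 12.02, 14.1 and 14.8 RPKM in the mutant (log2 fold change 1.70, limma adjusted p = 3.46e-05). The changes of PIF4 and PIF5 were larger on this scale than that of any XTH gene called higher, the largest of which was 0.77 for XTH24. Seed storage and oil body markers fell in the same comparison for 4 of 8 tested genes, against 6.65% of all genes called lower. The list went from a summed 747.1 ± 66.98 to 362.4 ± 33.3 RPKM over 9 genes (SD, n = 3 each). The seed genes that did not pass spread widely within Col-0, as in SESA3 at 1.25, 40.7 and 88.1 RPKM. Of 5 shoot mesophyll markers 2 were higher, RCA and PSBO1 (40.0%, against 3.90% of all genes), and 3 did not pass. Of those 3, RBCS1A and LHCA1 overlapped between genotypes. CA1 was lower in all mutant libraries, with means of 1708 and 1468 RPKM (log2 fold change -0.22, limma adjusted p = 0.283). The list summed to 14829 ± 666.7 and 16899 ± 661.4 RPKM (SD, n = 3 each), most of it RBCS1A at means of 9431 and 10121 RPKM. Of 4 endodermis markers 0 were called by limma and 0 by limma-voom, with 0 at an unadjusted limma p under 0.05. The part of PIF4, PIF5 and these marker lists in the changes of the XTH genes was not tested.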

How the data were processed

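Whole-seedling RNA was sequenced from 3 Col-0 and 3 toc1-21 prr5-1 samples, named biological replicates in the series' design text. No source used here says whether they were grown separately, so the spread behind each p-value may be technical. The authors deposited RPKM per gene, 1 file per library, per the file headers. The tools were TopHat2, TopHat and edgeR and the build TAIR10, per the submitters' processing notes. The sources used here do not state the counter or the multi-mapping rule.

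Depths and whole reads were recovered from the RPKM values for 25139 of 25139 genes above 0 (to within 0.001 of a whole number, trying the annotated length and then lengths of 30 to 20000 bases). The gene lengths behind the values of the 30 members above 0 were shorter than those of TAIR10.1. Genotype was tested with limma 3.58.1 (R 4.3.3), trend on, on log2(RPKM + 1), for genes that reached 1 RPKM in 3 or more libraries, and the script was tested on simulated data. Alternatives were 2 pseudocounts, 2 filters, 2 scalings, limma-voom, a replicate block and leaving out each library.

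Members and lists were chosen with earlier results of these data known. Every member is accounted for. Values in each library are given for members that passed, did not overlap or were among the 5 most abundant, and for others by their role. Positions and names come from RefSeq TAIR10.1, which matched 97.7% of loci. A promoter sequence is not reported here.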

Additional observations from a re-analysis of the deposited data

How the results depend on the processing

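Over 14 other fits, 393 of 398 recomputed XTH changes kept their side of the threshold, 14 of them with the sign changed in members that were not called, 4 lost the call (all XTH22) and 1 gained it. XTH23, not tested with the filter at 5 RPKM, was called in the other 13, and XTH4, XTH6 and XTH24 in all 14. The count of XTH genes called ran from 4 to 6. With the filter at 5 RPKM 0 were called lower. Leaving out 1 library gave 0 to 1 synthesis genes, 0 to 2 trimming genes, 1222 to 2085 called genes in all (1222 when Col-0 replicate 1 was left out, 1294 for mutant replicate 1, 1313 for mutant replicate 2) and a median XTH log2 fold change of 0.0869 to 0.3545. Median-ratio scaling and quantile normalization each left 1 trimming gene, and so did the replicate block. The cause was not tested.

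Over all tested genes, same-numbered libraries had deviations that correlated at -0.03, 0.15 and 0.04, so the numbers are not shown to pair them. With the replicate block 6 XTH genes were called in place of 5, XTH14 being the gain (log2 fold change 0.56, adjusted p = 0.00988), and 2114 genes in all in place of 2080. Scaling moved the median of all genes by under 0.1. Depth limits XTH23 and members under 3 RPKM most: read counts of tested members went down to 7 per library.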
